A study of Homo sapiens with 6 samples.

Results

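Genes of cholesterol synthesis, of fatty acid synthesis and of their shared transcriptional control were examined in the human triple negative breast cancer (TNBC) line MDAMB468. The set was a list of 36 gene symbols, matched by Ensembl identifier to the table of 10487 genes. Of these, 33 had a row: 18 of 19 genes of sterol synthesis, 10 of 11 genes of fatty acid synthesis and 5 of 6 regulators. The other 3, CYP51A1, FADS2 and STARD4, had no row under their identifiers and were not analysed here. The table keeps genes with a mean over 5 CPM (read counts scaled to the size of the library) in at least 1 condition, so each of the 33 had passed that filter. Cells labelled as overexpressing IGFBP2, an insulin-like growth factor binding protein, were compared with control cells labelled WT. There were 3 libraries in each group, all of MDA-MB-468 cells with no treatment. The overexpressing line stably carries an inactive Cas9 fused to transcriptional activators and a guide RNA to the IGFBP2 promoter, introduced with lentivirus. The sources used here do not say whether the control cells carry the activator, so its presence and the higher IGFBP2 level cannot be told apart.

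Cells build cholesterol from acetyl-CoA through the mevalonate pathway, squalene and a series of sterol intermediates, and they build fatty acids from the same precursor through malonyl-CoA. Both routes are controlled by the sterol regulatory element binding proteins (SREBPs), membrane-bound precursors encoded by SREBF1 and SREBF2. SCAP escorts the SREBPs from the endoplasmic reticulum to the Golgi, where they are cut to release the active factors, and the INSIG proteins hold SCAP back when sterols are plentiful. SREBF2, INSIG1 and many of the enzymes are themselves known SREBP targets, and lipid synthesis is commonly active in breast cancer cells.

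IGFBP2 itself was read first, since it was the gene targeted. It had 93.5, 87.3 and 136 CPM in the control libraries and 566, 1176 and 498 CPM in the overexpression libraries, a log2 fold change of 2.73 (limma adjusted p = 0.0148). All 9 epithelial and basal breast markers were in the table, hormone receptor genes ESR1 and PGR had no row, and 1 of 9 markers of leukocytes, endothelium and fibroblasts (COL1A1) had one. The libraries held between 2497353 and 4579587 reads on the listed genes. Across genes, the overexpression libraries correlated with each other at r of 0.965 to 0.976, the control libraries with each other at 0.95 to 0.957, and libraries of different groups at 0.934 to 0.951. Because the RNA came from bulk cells, fewer cells expressing a gene and less RNA per cell cannot be told apart.

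The regulators SREBF2 and INSIG1, the fatty acid genes SCD and FASN, and the mevalonate enzyme MVD had 1.84-fold to 2.46-fold lower mean CPM in IGFBP2 overexpression cells than in control cells, as did SREBF1. No member passed the main test, limma on the deposited log2(CPM + 1) values with Benjamini-Hochberg adjustment over all genes at 0.05. The count was 0 of 33, where 0.629% of all genes passed. At an unadjusted p under 0.05, 7 of 33 members (21.2%) were lower in IGFBP2 overexpression cells, where 6.12% of all genes were, and 0 were higher, where 6.88% of all genes were. For 9 of 33 members (27.3%) all 3 overexpression libraries lay below all 3 control libraries, where this held for 8.61% of all genes, and for 0 members they lay above, where it held for 9.43%. With a mean-variance trend in limma, 4 members (12.1%) passed after adjustment as lower and 0 as higher, where 0.629% of all genes were lower and 0.896% higher. With limma voom on whole reads recovered from the values, 4 passed as lower and 0 as higher, where 0.486% and 0.858% of all genes did. In both of these fits the 4 genes were SREBF2, INSIG1, SCD and MVD.

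The median log2 fold change over the 33 members was -0.26, with 24 of 33 below 0, where the median over all 10487 genes was 0.00 and 5241 of 10487 were below 0. By role, 3 of 5 regulators, 14 of 18 sterol genes and 7 of 10 fatty acid genes were below 0. The median was -0.25 for the sterol genes and -0.21 for the fatty acid genes. The median of the regulators, -1.01, was the value of SREBF1 alone, in a list with INSIG1 and SREBF2 below it and SCAP and INSIG2 above 0.

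**Figure D1:**
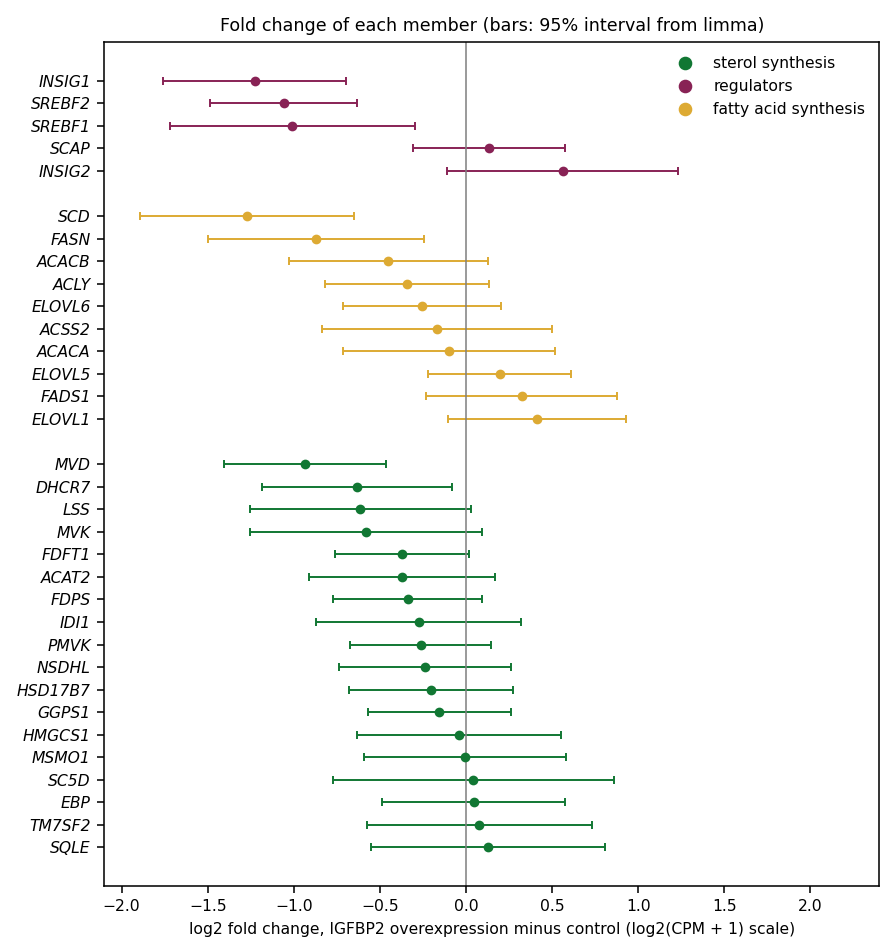
Points give the log2 fold change (IGFBP2 overexpression minus control, log2(CPM + 1) scale, horizontal axis) of each of the 33 measured members, grouped by role, and bars the 95% interval from limma with 3 libraries a group. The intervals of INSIG1, SREBF2, SREBF1, SCD, FASN, MVD and DHCR7 lie below 0, and no interval lies above 0.

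SREBF2 (ENSG00000198911, chromosome 22 of GRCh38, 41833105 to 41907306), which encodes the SREBP that mainly drives cholesterol genes, was at 86.6, 102 and 94.6 CPM in control replicates 1, 2 and 3 and at 42.5, 40.3 and 52.2 CPM in overexpression replicates 1, 2 and 3. The groups did not overlap, and the highest overexpression library was well under the lowest control library. Control cells had a mean of 94.5 ± 7.89 CPM and overexpression cells one of 45.0 ± 6.33 CPM (SD, n = 3 each), 2.10-fold lower. The log2 fold change was -1.06 (95% interval from limma, not adjusted for the number of genes, -1.49 to -0.63, limma adjusted p = 0.0507), just over the threshold. It passed in 4 of 14 alternative fits, with adjusted p-values between 0.00603 and 0.235, and the log2 fold change stayed between -1.17 and -0.99.

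INSIG1 (ENSG00000186480, chromosome 7, 155297776 to 155310235), which encodes a protein that retains SCAP in the endoplasmic reticulum, was at 40.2, 30.9 and 39.6 CPM in the control libraries and at 20.7, 12.9 and 12.8 CPM in the overexpression libraries. Again no libraries of the groups overlapped. The mean was 36.9 ± 5.22 against 15.5 ± 4.50 CPM (SD, n = 3 each), 2.39-fold lower, with a log2 fold change of -1.23 (95% interval -1.76 to -0.70, limma adjusted p = 0.0673). INSIG1 also passed in 4 of 14 alternatives, with adjusted p-values from 0.0171 to 0.258.

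SREBF1 (ENSG00000072310, chromosome 17, 17810399 to 17837002), whose products mainly drive fatty acid genes, was at 20.2, 23.1 and 23.0 CPM in the control libraries and at 7.41, 8.07 and 18.7 CPM in the overexpression libraries. Overexpression replicate 3 thus lay close to the controls while the other 2 lay well below them. The log2 fold change was -1.01 (95% interval -1.72 to -0.30, limma adjusted p = 0.233), and without overexpression replicate 3 it was -1.40 (limma adjusted p = 0.0388, range over alternatives 0.0388 to 0.533). Because that replicate was singled out as near the controls in these same values, a larger difference without it was fixed in advance. The fit without it was the only 1 of 14 alternatives in which SREBF1 passed. The gene held only 19 to 91 reads a library, and its exons overlap those of RAI1 on the opposite strand, whose reads may have been shared since the strand setting of the counting is not given in the sources used here.

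SCAP, the escort protein itself, was at 73.3, 82.1 and 83.3 CPM in the control libraries and at 72.5, 90.4 and 101 CPM in the overexpression libraries, and the groups overlapped. Its log2 fold change was 0.13 (95% interval -0.31 to 0.57), so a change as large as that of SREBF2 lies outside its interval. INSIG2, the INSIG1 paralog that is less dependent on SREBPs, was at 7.77, 4.17 and 3.23 CPM in the control libraries and at 8.97, 8.39 and 5.58 CPM in the overexpression libraries. These rest on 8 to 35 reads a library. Its log2 fold change was 0.56 (95% interval -0.11 to 1.23), on the opposite side of 0 from INSIG1, and its groups overlapped.

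**Figure D2:**
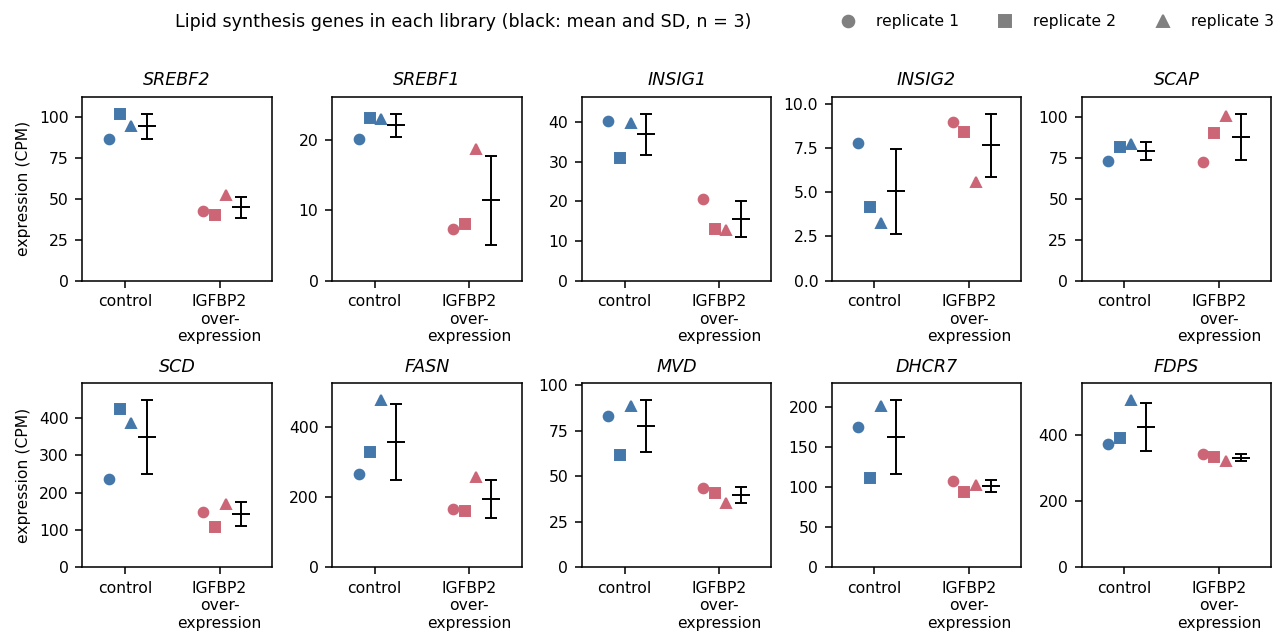
Expression in CPM (vertical axes, from 0) of the 5 regulators and of SCD, FASN, MVD, DHCR7 and FDPS in each of the 6 libraries, with marker shapes for the replicate numbers and black marks for the mean and SD of 3 libraries. Control and overexpression libraries do not overlap except for INSIG2 and SCAP, and SREBF1 in overexpression replicate 3 stands near the controls.

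The sterol genes were described in the order of the pathway. ACAT2, which condenses acetyl-CoA to acetoacetyl-CoA, was at 265, 168 and 301 CPM in the control libraries and at 179, 189.8 and 181 CPM in the overexpression libraries. Its groups overlapped because control replicate 2 was the lowest of all, and the log2 fold change was -0.37 (95% interval -0.91 to 0.17). HMGCS1, which makes HMG-CoA and is a classical SREBP target, had a log2 fold change of -0.04 (95% interval -0.63 to 0.55). MVK, mevalonate kinase, was at 77.7, 56.2 and 134 CPM in the control libraries and at 53.0, 61.7 and 52.6 CPM in the overexpression libraries, with a log2 fold change of -0.58 (95% interval -1.26 to 0.09). PMVK, the next kinase, was at 98.1, 81.5 and 92.6 against 70.2, 72.9 and 83.1 CPM, a log2 fold change of -0.26 (95% interval -0.67 to 0.15), and its groups overlapped at 2 libraries. ACAT2 and MVK overlap exons of protein-coding genes on the opposite strand (TCP1 and SOD2, and MMAB).

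MVD (ENSG00000167508, chromosome 16, 88651935 to 88663161), which decarboxylates mevalonate diphosphate to the first isoprene unit, was at 83.0, 61.5 and 88.6 CPM in the control libraries and at 43.7, 40.7 and 35.1 CPM in the overexpression libraries, and the groups did not overlap. The mean was 77.7 ± 14.3 against 39.8 ± 4.32 CPM (SD, n = 3 each), 1.95-fold lower, with a log2 fold change of -0.93 (95% interval -1.40 to -0.47, limma adjusted p = 0.108). MVD passed in 3 of 14 alternatives, with adjusted p-values from 0.0231 to 0.300. The isomerase IDI1, which acts after it, had a log2 fold change of -0.28 (95% interval -0.87 to 0.32).

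FDPS, which joins isoprene units to farnesyl diphosphate and was the most abundant member in control cells, was at 373, 390.2 and 506 CPM in the control libraries and at 342, 332 and 320.0 CPM in the overexpression libraries. The groups did not overlap, but the gap was narrow and the log2 fold change of -0.34 had a 95% interval from -0.77 to 0.09. By name, 8 pseudogenes of FDPS, 3 of IDI1, 2 of HSD17B7 and 1 of SCD are annotated, and reads of these genes could have been split among them. FDFT1, squalene synthase and the first enzyme committed to sterols, was at 238, 208 and 233 CPM in the control libraries and at 177, 169 and 177 CPM in the overexpression libraries. It too did not overlap between groups and was 1.30-fold lower (log2 fold change -0.37, 95% interval -0.76 to 0.02). GGPS1, which takes the branch to geranylgeranyl diphosphate, had a log2 fold change of -0.15.

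SQLE, squalene epoxidase, was on the other side, with a log2 fold change of 0.13 (95% interval -0.55 to 0.81). LSS, which closes the sterol rings, was at 36.2, 20.9 and 39.6 CPM in the control libraries and at 19.5, 25.8 and 15.8 CPM in the overexpression libraries, so control replicate 2 lay among the overexpression libraries. Its log2 fold change was -0.61 (95% interval -1.25 to 0.03). DHCR7, which reduces 7-dehydrocholesterol to cholesterol at the end of the pathway, was at 175, 111 and 201 CPM in the control libraries and at 108, 93.6 and 103 CPM in the overexpression libraries. The groups did not overlap, with control replicate 2 just above overexpression replicate 1, and the log2 fold change was -0.63 (95% interval -1.18 to -0.08, limma adjusted p = 0.315, unadjusted p = 0.0292 in limma). The other 6 genes of the post-squalene steps (TM7SF2, MSMO1, NSDHL, HSD17B7, EBP and SC5D) had log2 fold changes between -0.24 and 0.08, each with an interval that held 0. HSD17B7 rested on 15 to 35 reads a library. TM7SF2 overlaps VPS51 on the same strand, and EBP and GGPS1 each overlap a protein-coding gene without a symbol on the same strand. On the opposite strand, GGPS1 overlaps ARID4B and the fatty acid gene FADS1 overlaps FADS2.

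Read library by library, the sterol genes varied together among the controls. The median deviation of the 18 genes from their own means over the 6 libraries (log2 scale) was 0.22, -0.26 and 0.46 in control replicates 1, 2 and 3, and -0.12, -0.14 and -0.21 in overexpression replicates 1, 2 and 3. Control replicate 2 was thus below every overexpression library, and control replicates 1 and 3 were above them. Control replicate 2 was the lowest control library for 16 of 18 sterol genes (88.9%), where it was for 32.4% of all genes, and control replicate 3 was the highest for 11 of 18, where it was for 32.8%. The standard deviation was larger in control than in overexpression cells for 16 of 18 sterol genes (88.9%), where it was for 61.0% of all genes, and its median was 0.43 against 0.14 (log2 scale), where over all genes it was 0.27 against 0.22. Genes of a pathway are not independent of each other, so these shares are descriptions of the 6 libraries.

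The size of the sterol difference varied with the controls kept. Without control replicate 2, 18 of 18 sterol genes were below 0 and the median log2 fold change was -0.39. With all libraries these were 14 of 18 and -0.25. Because control replicate 2 was singled out as low in these same genes, a larger difference without it was fixed in advance. Without control replicate 1 the median was -0.20, with 13 of 18 below 0. Without control replicate 3 the median was -0.19, with 12 of 18 below 0. The regulators did not follow this order: their median deviation was 0.38, 0.37 and 0.53 in control replicates 1, 2 and 3 and -0.20, -0.68 and -0.09 in overexpression replicates 1, 2 and 3. Control replicate 2 was the lowest control for 1 of the 5 regulators. What set control replicate 2 apart in the sterol genes was not tested.

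**Figure D3:**
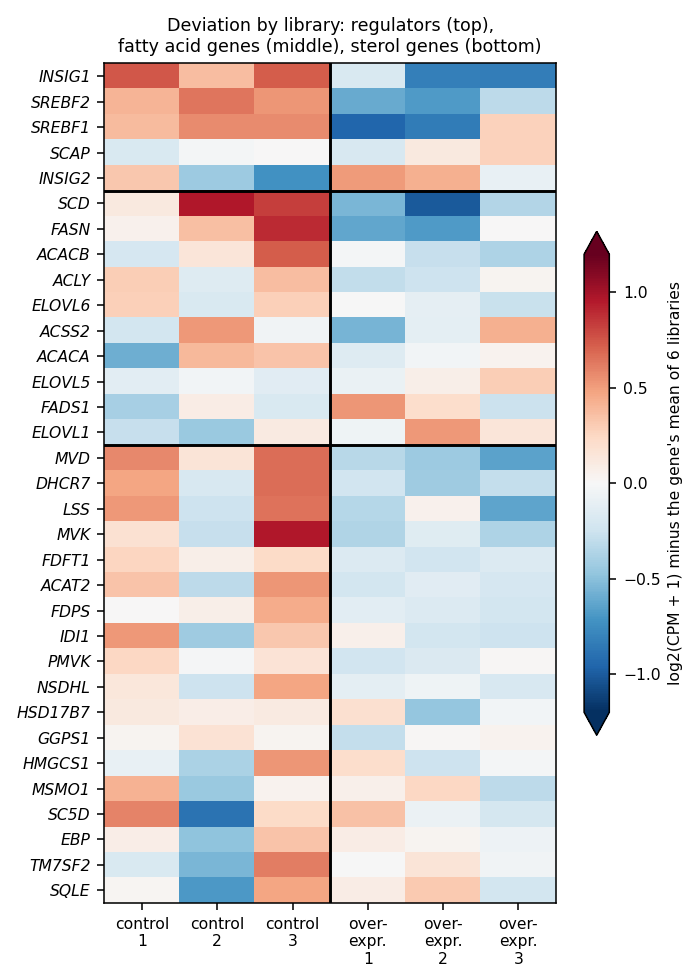
Each cell gives the log2(CPM + 1) value of a member in a library minus the mean of that member over the 6 libraries, red above and blue below the mean, with regulators at the top, fatty acid genes in the middle and sterol genes at the bottom. Control replicate 2 is blue for most sterol genes, while SREBF2, SREBF1, INSIG1, SCD and FASN are red in it.

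SCD (ENSG00000099194, chromosome 10, 100347233 to 100364826), which introduces the double bond that makes oleate and palmitoleate, was at 237, 424 and 387 CPM in the control libraries and at 149, 107 and 169.8 CPM in the overexpression libraries, and the groups did not overlap. The mean was 349 ± 99.2 against 142 ± 31.7 CPM (SD, n = 3 each), 2.46-fold lower, with a log2 fold change of -1.27 (95% interval -1.89 to -0.65, limma adjusted p = 0.10). Control replicate 1 was the lowest control, and without it the log2 fold change was -1.53 (limma adjusted p = 0.0440, range over alternatives 0.00682 to 0.310). Because that replicate was singled out as the lowest control in these same values, a larger difference without it was fixed in advance. SCD passed in 4 of 14 alternatives, of which the fit without control replicate 1 was 1. By name, 1 pseudogene of SCD is annotated, with which reads could have been shared.

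FASN (ENSG00000169710, chromosome 17, 82078338 to 82098294), the fatty acid synthase, was at 266, 328 and 476 CPM in the control libraries and at 165, 159 and 256 CPM in the overexpression libraries. The groups did not overlap, although overexpression replicate 3 came close to control replicate 1. The mean was 357 ± 108 against 194 ± 54.3 CPM (SD, n = 3 each), 1.84-fold lower, with a log2 fold change of -0.87 (95% interval -1.50 to -0.24, limma adjusted p = 0.238). FASN passed in 0 of 14 alternatives.

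The enzymes that supply FASN differed less. ACLY, which makes cytosolic acetyl-CoA from citrate, was at 165, 120.4 and 174 CPM in the control libraries and at 109.5, 113 and 137 CPM in the overexpression libraries, with a log2 fold change of -0.34 (95% interval -0.82 to 0.14). ACACA, the cytosolic acetyl-CoA carboxylase, had a log2 fold change of -0.10 (95% interval -0.72 to 0.52), and ACSS2, which makes acetyl-CoA from acetate, one of -0.17 (95% interval -0.84 to 0.50). ACACB, the carboxylase at the mitochondrial membrane whose product inhibits fatty acid import, was at 12.7, 16.4 and 25.1 CPM in the control libraries and at 14.4, 11.9 and 11.2 CPM in the overexpression libraries (log2 fold change -0.45, 95% interval -1.03 to 0.13). All 4 overlapped between groups.

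The elongases and the desaturase FADS1, which modify existing fatty acid chains, lay on both sides of 0. ELOVL1, which elongates very long saturated chains, was at 53.7, 47.6 and 70.4 CPM in the control libraries and at 63.2, 94.3 and 72.3 CPM in the overexpression libraries (log2 fold change 0.41, 95% interval -0.11 to 0.93). The log2 fold change was 0.32 for FADS1, 0.20 for ELOVL5 and -0.26 for ELOVL6, and all 4 genes overlapped between groups. Fatty acid genes did not share 1 order of the controls: the median deviation was -0.16, 0.12 and 0.32 in control replicates 1, 2 and 3 and -0.11, -0.11 and 0.02 in overexpression replicates 1, 2 and 3. Control replicate 2 was the lowest control for 3 of the 10.

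RefSeq promoter windows (GRCh38.p14), from 250 bases before to 50 after an annotated start, were found for 29 of the 33 measured members. The 4 without a window were ACAT2, FASN, FDFT1 and SQLE. The 4 motifs were searched by their letters on both strands: the sterol regulatory element TCACNCCAC (N any base), the E-box CACGTG, the CCAAT box CCAAT and the GC box GGGCGG, where neighbouring GC boxes may overlap. The windows below are of the 4 members that passed in the fits with a trend and with voom. SREBF2 was to be shown by a rule on the sterol regulatory element, and INSIG1, SCD and MVD were added after their values were seen. Each reads from 5′ to 3′ on the strand of its gene, with motif letters of any of the 4 kinds in capitals. SREBF2 lies on the plus strand (chr22:41832855-41833154), INSIG1 on the plus strand (chr7:155297628-155297927), SCD on the plus strand (chr10:100346983-100347282) and MVD on the minus strand (chr16:88663042-88663341).
SREBF2: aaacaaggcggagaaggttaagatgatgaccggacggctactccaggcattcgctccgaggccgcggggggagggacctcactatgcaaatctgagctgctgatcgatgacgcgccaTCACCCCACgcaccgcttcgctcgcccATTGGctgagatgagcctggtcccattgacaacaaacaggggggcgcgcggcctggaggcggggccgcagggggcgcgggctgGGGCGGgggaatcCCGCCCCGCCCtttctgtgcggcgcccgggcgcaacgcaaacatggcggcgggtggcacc
INSIG1: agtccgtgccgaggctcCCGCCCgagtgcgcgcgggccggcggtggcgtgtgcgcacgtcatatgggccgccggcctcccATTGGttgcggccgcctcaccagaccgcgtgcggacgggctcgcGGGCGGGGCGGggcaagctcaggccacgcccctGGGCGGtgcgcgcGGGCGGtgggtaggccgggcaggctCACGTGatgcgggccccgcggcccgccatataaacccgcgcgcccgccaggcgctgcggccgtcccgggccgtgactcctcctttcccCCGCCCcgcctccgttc
SCD: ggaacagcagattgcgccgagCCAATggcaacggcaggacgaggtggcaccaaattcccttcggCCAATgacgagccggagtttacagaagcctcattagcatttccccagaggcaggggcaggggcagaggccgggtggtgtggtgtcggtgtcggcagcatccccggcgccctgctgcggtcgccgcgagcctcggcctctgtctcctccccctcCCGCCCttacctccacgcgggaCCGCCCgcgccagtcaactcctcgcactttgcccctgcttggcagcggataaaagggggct
MVD: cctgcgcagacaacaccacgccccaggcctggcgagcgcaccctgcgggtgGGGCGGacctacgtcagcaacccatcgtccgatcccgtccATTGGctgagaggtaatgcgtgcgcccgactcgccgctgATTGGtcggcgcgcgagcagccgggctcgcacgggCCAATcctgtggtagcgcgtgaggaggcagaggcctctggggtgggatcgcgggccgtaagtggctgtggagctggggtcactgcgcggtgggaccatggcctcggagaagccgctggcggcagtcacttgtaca

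The SREBF2 window holds the sterol regulatory element letters TCACCCCAC at -133 from the start on the plus strand, overlapping no other motif searched, and a reversed CCAAT box at -106. The INSIG1 window holds a reversed CCAAT box at -170 and an E-box at -55. SCD has CCAAT boxes at -229 and -186, and MVD has reversed ones at -159 and -120 and 1 on the plus strand at -85. Some members have more than 1 window, and shares were taken per gene with a match in any of its windows. Of the 29 members with a window, 1 (3.45%) held the sterol regulatory element letters, where 1.46% of the genes of the table with a window did. The E-box was found for 5 (17.2%, table genes 13.1%), the CCAAT box for 23 (79.3%, table genes 43.7%) and the GC box for 27 (93.1%, table genes 78.9%). Over all genes with a window, the shares were 1.39%, 8.77%, 39.7% and 48.3%. The CCAAT box was in windows of members with an unadjusted p under 0.05, such as SREBF2 and MVD, and of others, such as HMGCS1 and EBP. A match of letters is a description and not a binding site, and a missing match says only that these letters are not in this window.

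Neighbouring lipid genes were read from 6 further lists. SREBP processing and sterol-dependent degradation had 18 of 19 genes in the table and a median log2 fold change of 0.12, with 13 of 18 above 0. None passed after adjustment, while at an unadjusted p under 0.05 in limma 3 of 18 were higher and 0 lower, where 6.88% and 6.12% of all genes were. These were SEC24B (0.63), a coat subunit of the vesicles that carry cargo to the Golgi, ERLIN2 (0.42), a membrane scaffold of the degradation pathway, and MBTPS2 (0.50), a protease that cuts the SREBPs. Sterol efflux, esterification and transport had 17 of 20 genes and a median of 0.03, and isoprenoid use 15 of 15 and a median of -0.09, with no gene of either past the adjusted threshold. At an unadjusted p under 0.05 in limma, SCARB1 was the 1 gene of 17 that was higher in the former (all genes 6.88%). Of the 15 in the latter, RABGGTB (0.82), a subunit of Rab geranylgeranyl transferase, was higher at that level, though its groups overlapped. COX10 (-0.50), a farnesyl transferase of heme synthesis, was lower at that level, without overlap. SCARB1, the scavenger receptor that takes up cholesterol from high density lipoprotein, was at 13.8, 17.2 and 10.1 CPM in the control libraries and at 25.7, 24.9 and 25.6 CPM in the overexpression libraries (log2 fold change 0.87, limma adjusted p = 0.144).

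Fatty acid activation and elongation partners had 19 of 26 genes in the table and a median log2 fold change of -0.02. FADS3, a member of the fatty acid desaturase family, was the 1 lipid gene of the 6 further lists that was higher past the adjusted threshold, where 45 of all 10487 genes were. It was at 8.44, 15.6 and 14.2 CPM in the control libraries and at 33.5, 38.1 and 32.2 CPM in the overexpression libraries, without overlap, a log2 fold change of 1.41 (95% interval 0.87 to 1.96, limma adjusted p = 0.0452). It passed in 6 of 14 alternatives, with adjusted p-values from 0.00819 to 0.189. At an unadjusted p under 0.05 in limma, 2 of the 19 genes were higher and 2 lower, where 6.88% and 6.12% of all genes were. Within the list, the elongation enzymes HACD1 (0.80) and HSD17B12 (-0.58) differed in sign.

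Fatty acid oxidation, the route opposite to synthesis, had 24 of 27 genes in the table and a median log2 fold change of -0.05, with 14 of 24 below 0. CPT1A, which controls entry of fatty acids into mitochondria and is inhibited by the product of ACACA and ACACB, was at 29.7, 45.1 and 39.2 CPM in the control libraries and at 109, 105 and 72.9 CPM in the overexpression libraries, without overlap. Its log2 fold change was 1.30 (95% interval 0.77 to 1.84, limma adjusted p = 0.0531), and it passed in 5 of 14 alternatives, with adjusted p-values from 0.00446 to 0.234. The carrier SLC25A20, which follows CPT1A in mitochondrial import, was at 3.23 to 5.84 CPM in the control libraries and at 8.54 to 10.9 CPM in the overexpression libraries (log2 fold change 0.89, limma adjusted p = 0.167). Its control mean of 4.95 CPM was under the filter of 5 CPM, so it was kept only through its overexpression mean of 9.82 CPM. The direction of SLC25A20 was thus fixed by the filter and is not a result. It rested on 8 to 31 reads a library. ACADVL, the first dehydrogenase of long chain oxidation, was at 116, 116 and 118 against 196, 198 and 157 CPM (log2 fold change 0.64, limma adjusted p = 0.195). All 3 were higher without overlap between groups, and they were the only 3 of the 24 genes of the list, where this held for 9.43% of all genes. The count of 3 includes SLC25A20, whose direction the filter fixed, so only CPT1A and ACADVL in it can be read. Below the controls without overlap lay 1 of 24, where 8.61% of all genes did. At an unadjusted p under 0.05 in limma, 3 of 24 were higher, again with SLC25A20 among them, and 1 lower, where 6.88% and 6.12% of all genes were. Triglyceride and phospholipid synthesis had 25 of 28 genes, a median of 0.08, and 2 of 25 higher and 1 of 25 lower at that level, near the shares over all genes.

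**Figure D4:**
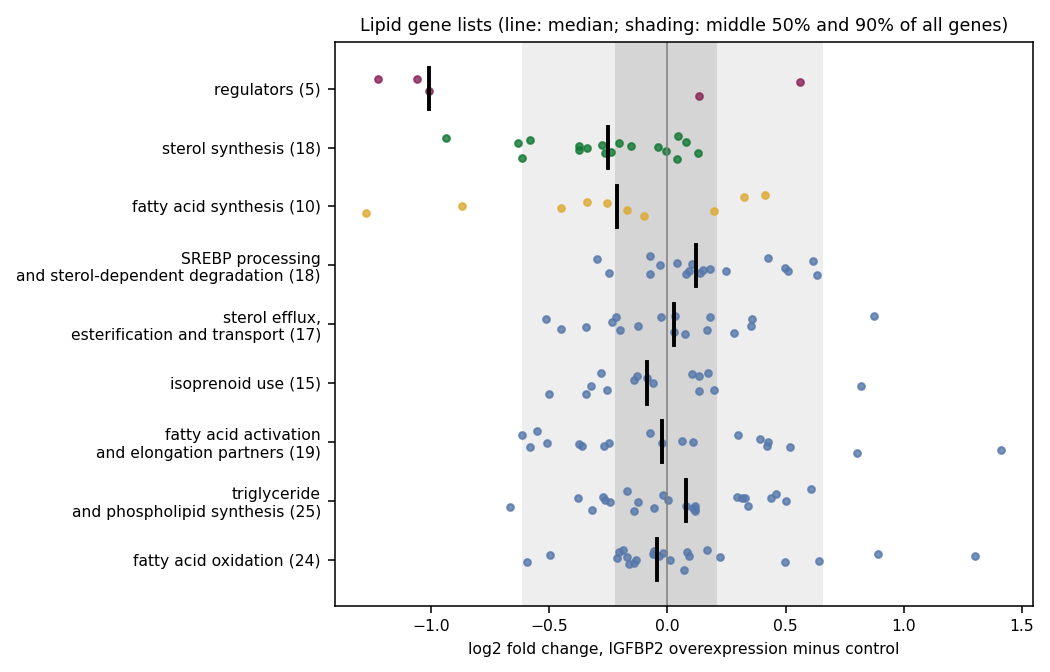
Points are the log2 fold changes (horizontal axis, IGFBP2 overexpression minus control) of the genes of the 3 member groups and of 6 further lipid lists, with the number measured in parentheses, black lines for the medians, and shading for the middle 50% and 90% of single genes over the whole table, which is a scale for the points and not for the medians. Of the 5 regulators, 3 lie below 0 and 2 above, and the medians of the other lists lie between -0.25 and 0.12.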

How the data were processed

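MDAMB468 RNA (3 control and 3 IGFBP2 overexpression libraries) was sequenced from the 3′ end of transcripts, so CPM values are not scaled by length. The authors demultiplexed reads with bcl2fastq, trimmed them with bbduk, mapped them with STAR (genome hg38), used htseq-count (HTSeq 0.9.1) for gene counts and normalized these with edgeR. Genes averaging more than 5 CPM in 1 or both conditions were kept, and log2(CPM + 1) values were deposited by the authors. The deposited log2 values of all 10487 genes were tested with limma 3.58.1 (R 4.3.3), with condition as the only term, no mean-variance trend, and Benjamini-Hochberg adjustment over all genes at 0.05. Intervals are unadjusted limma intervals at 95%, and fold changes are on the log2(CPM + 1) scale, which understates low genes. Whole reads (100% of values, tolerance 0.1) were recovered for limma voom and for other scalings. RefSeq gave promoter windows, and 10462 identifiers matched a symbol.

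The members and lists were chosen with earlier results of these data known. Genes given in full were the members with the smallest unadjusted p: 8 sterol genes, 5 fatty acid genes and 4 regulators, to which SCAP was added after its values were seen. In each other lipid list at most 3 genes with the smallest p could be named. The labels name biological replicates, and separate cultures are not described further, so p-values measure the spread between these libraries. Alternatives covered the variance model, scaling, pseudocount, low filter, replicate block and each library left out.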

Additional observations from a re-analysis of the deposited data

How the results depend on the processing

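The number of members that passed was 0 in the test as reported, 4 with a mean-variance trend, 4 with limma voom, 4 with a pseudocount of 5, 2 when genes needed a mean CPM over 10, and 7 at an unadjusted p under 0.05. Over all genes the count of 66 became 160 with the trend, 141 with voom, 37 with a pseudocount of 0.1 and 129 with a pseudocount of 5. It became 78 when genes needed a mean CPM over 10 and 1364 at an unadjusted p under 0.05. The cause was not tested. With each library left out in turn, 0 to 1 members and 12 to 79 genes passed, the lowest without overexpression replicate 1 (12), overexpression replicate 2 (13) and control replicate 3 (17). The 2 scalings moved no count of calls by over 1.5 times. No pairing of the libraries by replicate number was evident (correlations of same-numbered deviations 0.17, -0.064 and 0.084). Deviations of differently numbered libraries were not compared, so these values cannot exclude pairing. With a replicate block, 0 members and 55 genes passed. Of 460 combinations of a member and an alternative, 16 changed sign and 16 passed. MSMO1 turned to 0.0015 with library size only and 0.017 with upper quartile scaling. With single libraries left out, log2 fold changes spanned 0 for HMGCS1 (-0.24 to 0.21), SQLE (-0.19 to 0.40), TM7SF2 (-0.18 to 0.41), MSMO1 (-0.23 to 0.20), EBP (-0.19 to 0.22), SC5D (-0.39 to 0.35), ACACA (-0.42 to 0.071) and ACSS2 (-0.43 to 0.068). Depth limits genes near 5 CPM, such as INSIG2 and HSD17B7.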
